A study of Mus musculus with 64 samples.

Results

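Metabotropic glutamate receptors are the G protein-coupled receptors of glutamate, and the transcripts of 6 of them, Grm5, Grm2, Grm3, Grm4, Grm7 and Grm8, were measured in the mouse hippocampus across 8 inbred strains. The 6 genes were taken by symbol out of 32227 genes in the count table. All 6 were among the 17382 genes that passed the filter on low counts and were tested. Each receptor differed among the strains by a modest amount, 1.19-fold to 1.60-fold between its highest and its lowest strain, and the strains that were high or low differed from receptor to receptor. Grm5 was lowest in CAST/EiJ and WSB/EiJ, Grm2 was highest in CAST/EiJ and lowest in NOD/ShiLtJ, Grm3 was highest in C57BL/6J, and Grm4 was highest in A/J. None of the 6 passed the test between the sexes.

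Group I receptors, among them the product of Grm5, couple to Gq, activate phospholipase C and release calcium from internal stores. They sit mostly at the edge of the postsynaptic side of excitatory synapses, where Homer proteins tether them, and they are known for a form of long-term depression in hippocampal area CA1. Group II receptors, encoded by Grm2 and Grm3, and group III receptors, encoded by Grm4, Grm6, Grm7 and Grm8, couple to Gi and Go, lower cyclic AMP and mostly restrain transmitter release from presynaptic terminals.

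The tissue was hippocampus, sequenced in bulk from females and males of each strain, with 4 libraries for either sex of a strain, which makes 16 groups and 64 libraries. The strains were C57BL/6J, the source of the mouse reference genome, 129S1/SvImJ, A/J, NOD/ShiLtJ, a model of autoimmune diabetes, NZO/HlLtJ, a model of obesity, and CAST/EiJ, WSB/EiJ and PWK/PhJ, which descend from wild-caught mice. No treatment, age or batch was named in the labels used here, and the number 1 to 4 given to a library only names it. Nothing stated that the libraries of a group came from separate animals, so p-values measure the spread between these libraries, which may be partly technical. The CAST/EiJ females carried sample numbers from a block apart from all other samples, so that sex and number block cannot be told apart in that strain.

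Library totals ran from 16607602 to 27759221 counts, and a level below is in CPM, counts scaled to a common library size, after TMM scaling, given as mean ± SD. Markers of hippocampal neurons were present. All 5 genes of a CA1 pyramidal list, summing to 546 to 1211 CPM, and all 6 of a dentate granule list, summing to 237 to 435 CPM, had counts in every library. Genes listed as markers of neighbouring tissue had counts too, which alone do not show that such tissue was carried over. The 6 choroid plexus genes summed to 16.5 to 4780 CPM, with a median of 489 CPM. The 5 neocortical genes summed to 66.9 to 171.3 CPM, 5 of 6 thalamus and habenula genes to 84.3 to 150.4 CPM, and the 5 striatal genes to 11.6 to 38.8 CPM. In the thalamus and habenula list Rora, Prkcd and Nwd2 averaged 39.8, 39.1 and 36.6 CPM, while Tcf7l2 averaged 3.99 CPM and Gbx2 was too low to test. Of 5 cerebellar genes, Pcp2, Gabra6 and Barhl1 were too low to test, with at most 13, 4 and 4 counts in any library. The other 2, Calb1 and Cbln1, averaged 119.7 and 5.91 CPM. The members of this list thus differed widely, and its sum was not taken as a sign of cerebellar tissue. A single library, A/J male 2, correlated less with the others of its group (median r = 0.978) than a bound of 0.980 set from all libraries. The dependence of each library on transcript length was summarised as a slope, the change in log2 CPM relative to the gene's own mean per doubling of exon length. This slope was far below the rest in 4 libraries, A/J male 2 (-0.18), 129S1/SvImJ female 1 (-0.17), WSB/EiJ female 1 (-0.16) and C57BL/6J male 4 (-0.11), while the other 60 lay between -0.05 and 0.07. In bulk tissue, fewer cells of a type and less RNA per cell cannot be told apart.

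Per length, Grm5 was the most abundant of the 6. Its level was 28.8 ± 4.13 CPM per kb of exon (SD, n = 64). Grm3, Grm2 and Grm7 followed at 11.1 ± 1.64, 10.7 ± 1.83 and 9.19 ± 0.733 CPM per kb. Grm4 stood at 2.11 ± 0.447 CPM per kb and Grm8 at 0.787 ± 0.129 CPM per kb. The order of the middle 3 depended on the length used, since with the longest annotated transcript in place of all exons Grm7 came second at 12.8 CPM per kb, ahead of Grm2 and Grm3 at 11.1 CPM per kb each. Counts behind these levels ran from 4073 to 9159 per library for Grm5 and from 101 to 276 for Grm8, for which counting error alone gave a coefficient of variation of 7.60%, against 1.24% for Grm5.

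All 6 receptors passed the test among the 8 strains, edgeR's quasi-likelihood F test with Benjamini-Hochberg adjustment over all genes tested at a threshold of 0.05, against 89.2% of all genes. None of the 6 had a log2 range of strain means of 1 or more, a size that 27.6% of all genes reached together with the test. Their median log2 range was 0.46, against 0.55 over all genes tested. Strain accounted for 62.8% of the variance of log2 CPM for Grm2, 52.2% for Grm4, 46.4% for Grm5, 37.8% for Grm7, 35.2% for Grm3 and 25.5% for Grm8, against a median of 51.1% over all genes. The highest and the lowest strain shared no value for 2 of the 6, Grm5 and Grm3, whereas 60.1% of all genes showed such a gap. Set against the mean of the other 7 strains, 17 of 48 combinations of receptor and strain passed the test (42.3% over all genes and strains), all with log2 differences under 1. Of the 168 combinations of receptor and strain pair 67 passed (40.8% over all genes and pairs). These comparisons share libraries and are not independent of each other. A fold given below between a highest and a lowest strain is of a pair picked by its size from 28. The adjustment is over genes and not over pairs. Such folds, intervals and p-values take no account of that choice, and the folds may be overstated. Against the other 7 strains, 10 combinations passed in females alone and 11 with a dentate granule marker score in the model. The plot of receptor levels shows the libraries behind these counts, and the plot of strain differences gives their sizes and intervals.

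**Figure D1:**
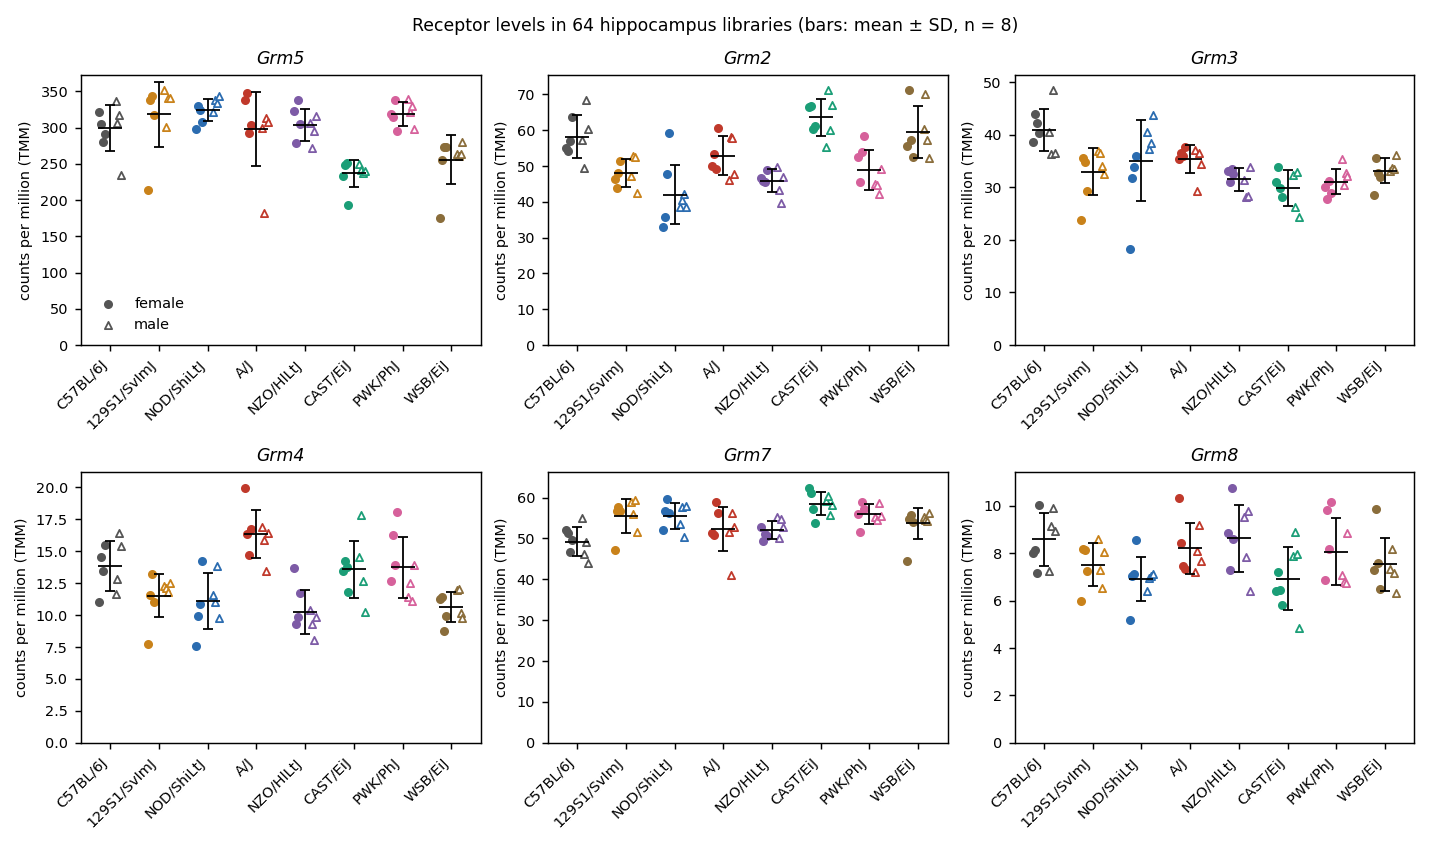
Levels of the 6 receptors in CPM (TMM-scaled, y axis from 0) in each of the 64 libraries, by strain (x axis), with females as filled circles, males as open triangles, and black bars for the mean ± SD (n = 8). Grm5 lies between 193 and 251 in CAST/EiJ, and its lowest single values elsewhere are isolated libraries such as A/J male 2 at 182.

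The group I receptor Grm5 (ENSMUSG00000049583, chromosome 7), which triggers calcium release and protein synthesis at the synapse, was lowest in CAST/EiJ. The 8 CAST/EiJ libraries had a lowest, median and highest level of 193, 241 and 251 CPM. The NOD/ShiLtJ libraries, at the top of the order, had 298, 327 and 343 CPM. Every NOD/ShiLtJ library was above every CAST/EiJ library, a 1.37-fold difference (95% interval 1.22 to 1.54). CAST/EiJ averaged 236.9 ± 18.9 CPM, against 302.9 ± 38.1 CPM in the other 7 strains (SD, n = 8 and 56), a log2 difference of -0.35 (SE 0.06, edgeR adjusted p = 5.92e-06), and all 8 of its libraries were under the median of the others. WSB/EiJ was lower as well, with a lowest, median and highest level of 175, 264 and 281 CPM, and differed from the other 7 by -0.22 (SE 0.06, edgeR adjusted p = 0.00333). NOD/ShiLtJ was higher by 0.17 (SE 0.06, edgeR adjusted p = 0.0233) and PWK/PhJ by 0.14 (SE 0.06, edgeR adjusted p = 0.0428). In the order of strain means the 6 highest strains, from NOD/ShiLtJ at 324.8 ± 15.3 CPM to A/J at 298.3 ± 50.7 CPM, did not differ beyond their spread between neighbours. The step from A/J to WSB/EiJ passed the test (log2 difference 0.22, edgeR adjusted p = 0.0359), and that from WSB/EiJ to CAST/EiJ did not.

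Each of the 4 libraries with a low slope held the lowest Grm5 of its group, with 182 CPM in A/J male 2, 175 CPM in WSB/EiJ female 1, 214 CPM in 129S1/SvImJ female 1 and 235 CPM in C57BL/6J male 4. The other 3 libraries of the A/J male group had 299 to 314 CPM. In CAST/EiJ the slopes averaged 0.02, and the Grm5 difference was -0.38 without the 4 libraries and -0.43 with the slope in the model. CAST/EiJ female 4, which those fits kept, had the lowest slope of its strain (-0.05) and its lowest Grm5 (193 CPM). In WSB/EiJ the difference was -0.19 and -0.14 in those fits and passed in both, but it was -0.16 in males alone and did not pass (edgeR adjusted p = 0.145). The PWK/PhJ difference was -0.01 with the slope in the model (edgeR adjusted p = 0.786), PWK/PhJ having the highest mean slope at 0.04, and it also missed the threshold in 31 of the 64 fits that each left out 1 library (0.13 to 0.14, adjusted p 0.0501 to 0.111). The PWK/PhJ call was lost in 9 of 15 other alternatives, whose values ran from -0.01 to 0.42. The NOD/ShiLtJ difference was 0.16 without NOD/ShiLtJ female 2 (edgeR adjusted p = 0.0587), and its call was lost in 4 of 15 other alternatives, with the thalamus and habenula score (0.11, adjusted p = 0.134), with the striatum score (0.17, adjusted p = 0.0505), in females alone (0.13, adjusted p = 0.283) and in males alone (0.21, adjusted p = 0.0556). In 129S1/SvImJ, where Grm5 did not pass, it did so without 129S1/SvImJ female 1 (0.20, edgeR adjusted p = 0.00581), without the 4 libraries (0.17), with the slope in the model (0.15) and with the thalamus and habenula score (0.14, adjusted p = 0.0418).

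**Figure D2:**
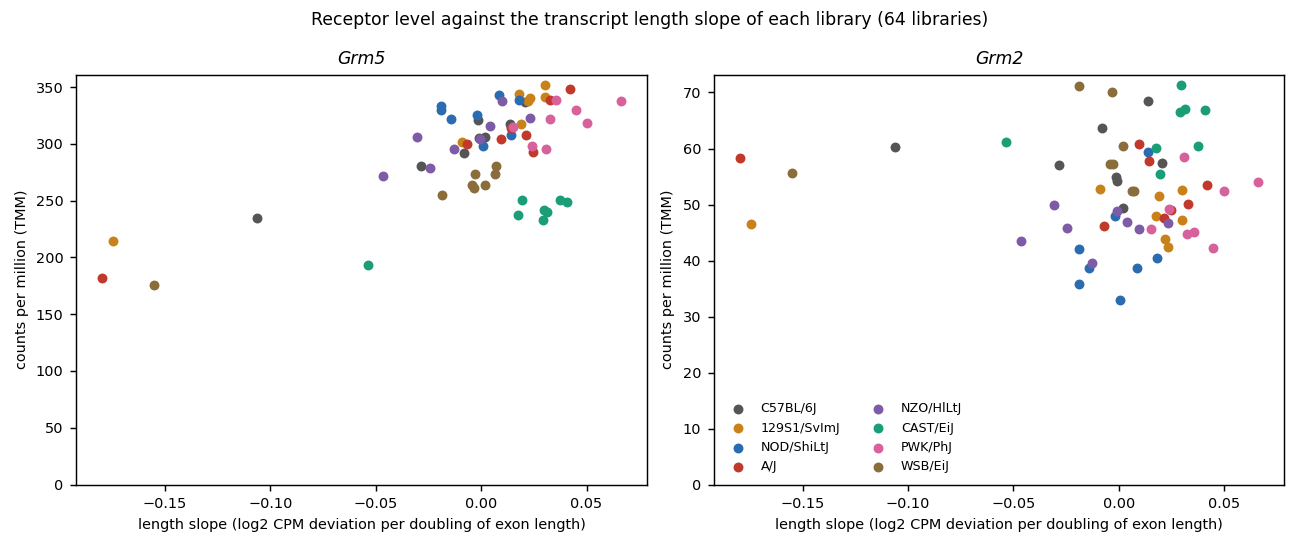
Level of Grm5 (left) and Grm2 (right) in CPM (y axis from 0) against the transcript length slope of the library (x axis, log2 CPM deviation per doubling of exon length), 1 point per library (64), coloured by strain. The 4 libraries with slopes of -0.11 and below have Grm5 levels of 175 to 235, and the CAST/EiJ points lie below those of other strains at the same slope.

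The mean log2 score of the 6 dentate granule markers was lower in CAST/EiJ too, at 0.71 under the other strains. Their sum was 249 to 333 CPM in CAST/EiJ, against 358 to 435 CPM in C57BL/6J, the strain with the highest sum. The CAST/EiJ sums overlapped those of all the remaining strains, among them 129S1/SvImJ (260 to 345 CPM), A/J (251 to 372 CPM) and WSB/EiJ (244 to 347 CPM). The genes of the score did not move together. Dsp averaged 2.65 ± 1.83 CPM in CAST/EiJ, against 69.8 ± 13.7 CPM in A/J, and Prox1 and Plk5 were also lowest in CAST/EiJ, whereas C1ql3 and Tdo2 were highest there. A covariate built on this score cannot tell strain differences of single markers from a change in granule neurons. In PWK/PhJ the score was 0.76 under the other strains (237 to 278 CPM), and the Grm5 difference was 0.14. With this score in the model the CAST/EiJ difference of Grm5 was -0.09 (edgeR adjusted p = 0.669), and the part of granule neurons in it was not tested.

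The group II receptor Grm2 (ENSMUSG00000023192, chromosome 9) is carried in the hippocampus by granule neurons and their mossy fibres and by perforant path input, and acts as a presynaptic brake on glutamate release. It was highest in CAST/EiJ, where the 8 libraries had a lowest, median and highest level of 55.4, 63.8 and 71.3 CPM. It was lowest in NOD/ShiLtJ, with 32.9, 39.6 and 59.3 CPM. In CAST/EiJ 7 of 8 libraries were above all NOD/ShiLtJ libraries, a single NOD/ShiLtJ female (59.3 CPM) reached into the CAST/EiJ range, and the difference was 1.52-fold (95% interval 1.36 to 1.70, edgeR adjusted p = 6.05e-09). Against the other 7 strains CAST/EiJ was higher by 0.34 on the log2 scale (63.6 ± 5.14 against 50.8 ± 8.20 CPM, SE 0.06, edgeR adjusted p = 2.26e-06), WSB/EiJ by 0.23 and C57BL/6J by 0.19. NOD/ShiLtJ was lower by a difference of -0.35 (42.0 ± 8.30 against 53.9 ± 8.04 CPM, SE 0.06, edgeR adjusted p = 7.30e-06) and NZO/HlLtJ by -0.20. No neighbours in the order of the 8 strain means passed the test. The CAST/EiJ difference was 0.26 with the dentate granule score in the model (edgeR adjusted p = 0.127), the C57BL/6J one 0.15 without C57BL/6J male 3 (edgeR adjusted p = 0.0594). The C57BL/6J call was also lost in 4 of 15 other alternatives, females alone among them. In females alone WSB/EiJ (0.19, edgeR adjusted p = 0.102), C57BL/6J (0.15, edgeR adjusted p = 0.265) and NZO/HlLtJ (-0.20, edgeR adjusted p = 0.125) did not pass. The mean log2 score of the 5 neocortical genes differed from the other strains in the direction of Grm2 in CAST/EiJ (0.43), WSB/EiJ (0.22) and NOD/ShiLtJ (-0.47). It went against Grm2 in C57BL/6J (-0.18) and NZO/HlLtJ (0.17). The part of neocortical tissue in the Grm2 differences was not tested.

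The other group II receptor, Grm3 (ENSMUSG00000003974, chromosome 5), is found on neurons and on astrocytes and is the receptor for the peptide transmitter N-acetylaspartylglutamate. It was highest in C57BL/6J, where the 8 libraries had a lowest, median and highest level of 36.3, 40.4 and 48.5 CPM. CAST/EiJ was at the bottom with 24.3, 30.4 and 33.9 CPM. All C57BL/6J libraries were above all CAST/EiJ libraries, a 1.37-fold difference (95% interval 1.23 to 1.53). C57BL/6J averaged 40.9 ± 4.05 CPM, against 32.7 ± 4.26 CPM in the other 7 strains, a log2 difference of 0.33 (SE 0.06, edgeR adjusted p = 7.89e-06), and all 8 of its libraries were above the median of the others. CAST/EiJ was lower by a difference of -0.19 (29.9 ± 3.39 against 34.3 ± 4.98 CPM, SE 0.06, edgeR adjusted p = 0.00741). In the order of strain means C57BL/6J differed from A/J, the next strain (edgeR adjusted p = 0.0421), and the 7 below it formed a run without a step that passed. Reads of all strains were counted on the C57BL/6J reference. The part of read matching to that reference in these and the other strain differences was not tested.

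Oligodendrocyte markers moved the same way as Grm3 in both strains. Their 6 genes, all with counts in every library, had a mean log2 score 0.33 over the other strains in C57BL/6J (3448 to 5210 CPM in sum) and 0.32 under them in CAST/EiJ (2642 to 3506 CPM). In NOD/ShiLtJ the score was 0.37 over the others (3223 to 5971 CPM), where Grm3 did not pass. The score of 7 astrocyte genes went the other way, 0.10 under the other strains in C57BL/6J (1014.5 to 1106 CPM in sum) and 0.26 over them in CAST/EiJ (1309 to 1563 CPM). The astrocyte genes did not all move together. Gja1, Fgfr3 and Gfap were highest in CAST/EiJ, whereas Aldh1l1 was lowest there (37.4 ± 1.67 CPM). With the oligodendrocyte score in the model the Grm3 difference was 0.22 in C57BL/6J (edgeR adjusted p = 0.0144) and -0.09 in CAST/EiJ (edgeR adjusted p = 0.316). With the dentate granule score it was 0.24 in C57BL/6J (edgeR adjusted p = 0.158) and -0.08 in CAST/EiJ (edgeR adjusted p = 0.678). In females alone the CAST/EiJ difference was -0.10 (edgeR adjusted p = 0.410). The part of any of these cell types in the differences was not tested.

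Within group II the 2 receptors took opposite directions in CAST/EiJ. The ratio of Grm2 to Grm3 CPM, which holds the lengths of both genes fixed, was 2.17 ± 0.385 in CAST/EiJ, 1.80 ± 0.208 in WSB/EiJ, and 1.25 ± 0.332 in NOD/ShiLtJ (SD, n = 8 each). The CAST/EiJ libraries ran from 1.71 to 2.76 and the NOD/ShiLtJ libraries from 0.884 to 1.80, so that the ranges met only at their ends. The remaining strains averaged from 1.43 in C57BL/6J to 1.59 in PWK/PhJ. In C57BL/6J both receptors were higher than in the other 7 strains, Grm2 by 0.19 and Grm3 by 0.33. Within groups of libraries the 2 correlated positively (r = 0.34). The promoters of the pair, the regulatory sequence nearest to the gene start, are shown since the 2 levels parted in CAST/EiJ. Each window holds 250 bases before and 50 after the start (RefSeq, build GRCm38.p6, the C57BL/6J reference, written along the gene's own minus strand), and capitals mark GGGCGG, a GC box that Sp1 family factors bind, searched on both strands.
Grm2, chr9:106656060-106656359: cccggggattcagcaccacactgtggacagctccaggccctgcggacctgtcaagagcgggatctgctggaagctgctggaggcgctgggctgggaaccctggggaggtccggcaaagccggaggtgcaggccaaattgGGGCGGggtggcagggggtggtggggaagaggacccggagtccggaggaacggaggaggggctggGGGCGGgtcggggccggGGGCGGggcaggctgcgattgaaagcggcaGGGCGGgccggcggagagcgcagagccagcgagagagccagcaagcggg
Grm3, chr5:9725303-9725602: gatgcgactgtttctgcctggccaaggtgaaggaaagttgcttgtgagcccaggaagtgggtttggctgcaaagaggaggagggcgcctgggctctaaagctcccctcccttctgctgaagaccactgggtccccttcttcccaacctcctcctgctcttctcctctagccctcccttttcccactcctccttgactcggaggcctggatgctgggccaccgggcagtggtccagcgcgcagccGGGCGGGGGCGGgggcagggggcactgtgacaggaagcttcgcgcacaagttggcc
The Grm2 window held 4 GC boxes and 72.0% G and C, and the Grm3 window held 2 boxes and 63.7% G and C. Of 32851 mouse promoter windows of the same length 35.7% held at least 1 such match, 19.5% at least 2 and 5.49% at least 4. The median share of G and C in those windows was 52.7%. These are matches of letters in the reference strain, and the sequence of the other strains was not analysed here.

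Among the group III receptors, Grm4 (ENSMUSG00000063239, chromosome 17), a presynaptic receptor best known from the cerebellum and basal ganglia, varied most. Its log2 range among strains was 0.67, the largest of the 6 and at the 58.0th percentile of all genes. A/J was highest, with a lowest, median and highest level of 13.5, 16.4 and 19.97 CPM. NZO/HlLtJ was lowest, with 8.04, 9.86 and 13.7 CPM. In A/J 7 of 8 libraries were above all NZO/HlLtJ libraries, and the difference was 1.60-fold (95% interval 1.38 to 1.85). A/J averaged 16.3 ± 1.88 CPM, against 12.1 ± 2.34 CPM in the other 7 strains, a log2 difference of 0.44 (SE 0.08, edgeR adjusted p = 4.55e-06). NZO/HlLtJ was lower by a difference of -0.33 (SE 0.08, edgeR adjusted p = 0.00119) and WSB/EiJ by -0.26 (SE 0.08, edgeR adjusted p = 0.00863). No neighbours in the order of means passed, the widest steps being A/J over C57BL/6J (0.23, edgeR adjusted p = 0.0877) and CAST/EiJ over 129S1/SvImJ (0.24, edgeR adjusted p = 0.0506). Striatal markers, at a summed 23.1 to 31.4 CPM in NZO/HlLtJ and 22.0 to 29.2 CPM in A/J, overlapped between these strains, and with their score in the model the differences were 0.37 in A/J and -0.50 in NZO/HlLtJ, both past the threshold. The part of striatal tissue in them was not tested. The NZO/HlLtJ difference did not pass in females alone (-0.20, edgeR adjusted p = 0.258), nor that of WSB/EiJ in males alone (-0.20, edgeR adjusted p = 0.153). In NOD/ShiLtJ Grm4 did not pass (-0.19, edgeR adjusted p = 0.0555). It did so in 6 of 15 other alternatives and in 11 of the 64 fits that each left out 1 library.

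Grm7 (ENSMUSG00000056755, chromosome 6), the low-affinity autoreceptor inside the active zone, varied least, with a log2 range of 0.25 at the 16.4th percentile of all genes. CAST/EiJ was highest with a lowest, median and highest level of 53.8, 58.5 and 62.4 CPM, and C57BL/6J lowest with 44.0, 49.4 and 55.0 CPM. In CAST/EiJ 7 of 8 libraries were above all C57BL/6J libraries. Against the other 7 strains the log2 difference was 0.13 in CAST/EiJ (58.5 ± 2.87 against 53.5 ± 4.14 CPM, SE 0.04, edgeR adjusted p = 0.00249) and -0.15 in C57BL/6J (49.2 ± 3.57 against 54.8 ± 3.97 CPM, SE 0.04, edgeR adjusted p = 0.00124). Between these the other 6 strains lay at 52.1 to 55.9 CPM on average, with no step that passed. Its libraries also varied least, with a biological coefficient of variation of 6.65%, against 10.7% to 13.7% for the other receptors. Grm7 overlaps the weakly counted Gm20387 (0.961 CPM) on the opposite strand. The use of strand in counting was not given, and whether the 2 genes share exons or reads was not tested. With the dentate granule score in the model Grm7 missed the threshold among strains (edgeR adjusted p = 0.0897), as it did in females alone (edgeR adjusted p = 0.0670).

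Grm8 (ENSMUSG00000024211, chromosome 6), a presynaptic receptor of high glutamate affinity, was the least abundant of the 6 and the closest to the threshold among strains (edgeR adjusted p = 0.0187). NZO/HlLtJ was at the top with a lowest, median and highest level of 6.40, 8.73 and 10.8 CPM, and NOD/ShiLtJ at the bottom with 5.16, 7.03 and 8.54 CPM. The 2 ranges overlapped, with 5 of 8 NZO/HlLtJ libraries above all of NOD/ShiLtJ, and the difference was 1.25-fold (95% interval 1.07 to 1.45, edgeR adjusted p = 0.0214). This pair was picked as the widest of 28, of which 5 passed. Against the other 7 strains CAST/EiJ alone passed, at -0.19 (6.93 ± 1.31 against 7.92 ± 1.24 CPM, SE 0.08, edgeR adjusted p = 0.0475). That call was lost in 46 of the 64 fits that each left out 1 library (-0.20 to -0.11, adjusted p 0.05002 to 0.268). It was also lost in 5 of 15 other alternatives. The test among strains also missed the threshold in females alone (edgeR adjusted p = 0.0766), in males alone (edgeR adjusted p = 0.243) and without the CAST/EiJ females (edgeR adjusted p = 0.0829).

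**Figure D3:**
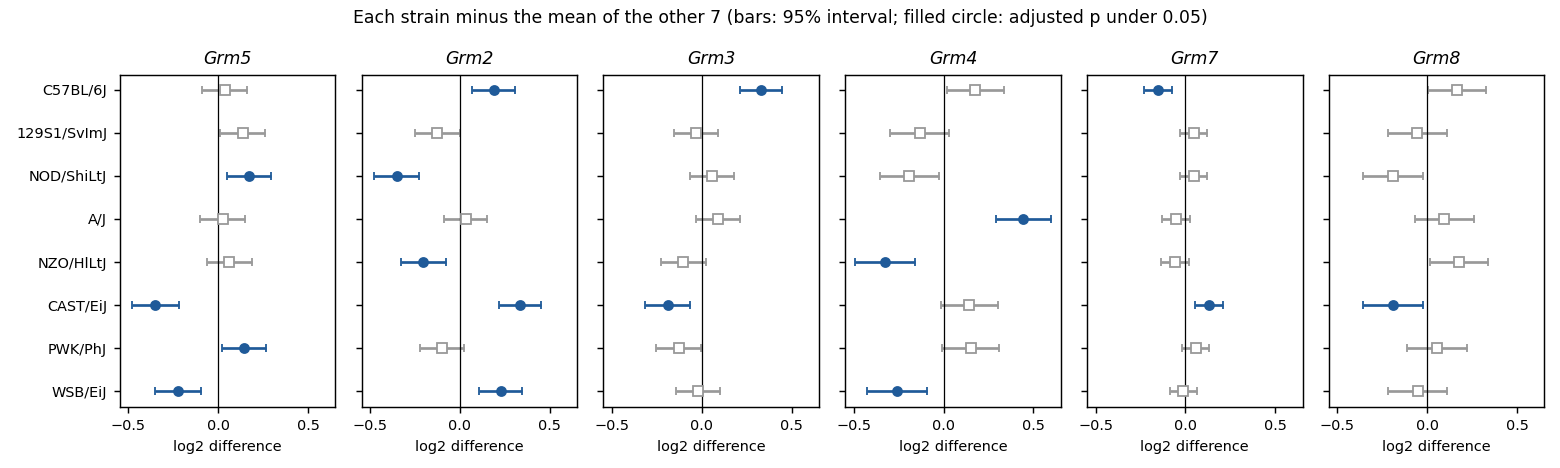
Log2 difference of each strain from the mean of the other 7 (x axis) for each receptor (panels) and strain (rows), with 95% intervals from the edgeR fit, where blue filled circles mark an adjusted p under 0.05 and grey open squares the rest. CAST/EiJ differs in 5 of the 6 panels, downwards for Grm5, Grm3 and Grm8 and upwards for Grm2 and Grm7, and 129S1/SvImJ in none.

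By strain, CAST/EiJ had the most receptors past the threshold, 2 higher and 3 lower of 6, where 28.3% of all genes were higher and 28.5% lower in that strain. WSB/EiJ had 1 higher (22.3% of all genes) and 2 lower (20%), C57BL/6J 2 higher (20.4%) and 1 lower (17.6%), NOD/ShiLtJ 1 higher (21.4%) and 1 lower (18.2%), and NZO/HlLtJ none higher (21.8%) and 2 lower (16.2%). A/J had 1 higher (19.1%) and none lower (14.7%), and PWK/PhJ 1 higher (28.9%) and none lower (28.8%). In 129S1/SvImJ none of 6 passed by edgeR, against 17.6% of all genes higher and 14.7% lower, or by DESeq2, while Grm5 and Grm2 had an unadjusted p under 0.05 and Grm5 passed without 129S1/SvImJ female 1, as given above. PWK/PhJ thus had Grm5 alone, and that call did not hold with the length slope in the model. In NOD/ShiLtJ a single library, NOD/ShiLtJ female 1, held the lowest level of all 64 for Grm2 (32.9 CPM), Grm3 (18.3 CPM) and Grm4 (7.59 CPM). Its oligodendrocyte and striatum scores of 7.94 and 1.08 were the lowest of its strain, and its length slope of 0.00 was not low. Without it the NOD/ShiLtJ differences were -0.30 for Grm2, which still passed, and 0.14 for Grm3, which then passed (edgeR adjusted p = 0.0243).

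None of the 6 receptors passed the test between females and males over all strains (0.167% of all genes did), by edgeR or by DESeq2, and none reached an unadjusted p under 0.05. The widest difference was that of Grm3, with 32.9 ± 5.10 CPM in females and 34.5 ± 4.88 CPM in males (SD, n = 32 each), a log2 difference of -0.07 (95% interval -0.15 to 0.01). The intervals of the other 5 lay within -0.10 and 0.13. Within strains none of the 48 combinations passed by edgeR, where 0.708% of all genes did in NOD/ShiLtJ, 0.104% in CAST/EiJ, 0.092% in A/J, 0.0633% in 129S1/SvImJ and 0.0575% in each of the other 4. Grm3 in NOD/ShiLtJ came closest. Its 4 females had 18.3, 31.8, 33.9 and 35.97 CPM and its 4 males 37.3, 38.3, 40.6 and 43.8 CPM, without overlap. The 18.3 CPM came from NOD/ShiLtJ female 1, the library with the lowest Grm2, Grm3 and Grm4 of all 64. Leaving out single libraries was not run for sex within a strain, so the part of that library was not tested. An unadjusted p under 0.05 was found for Grm3 in NOD/ShiLtJ and for Grm4 in PWK/PhJ. The log2 difference of Grm3 was -0.42 (95% interval -0.64 to -0.19, edgeR adjusted p = 0.0602). It passed in 5 of the 11 alternatives run for it, DESeq2 among them (adjusted p = 0.0275). The interaction of strain and sex passed for none of the 6 (0.046% of all genes), with an unadjusted p of 0.0299 for Grm3 and over 0.05 for the rest, and by DESeq2 for none of the 4 given an adjusted p.

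Grm6, known from retinal bipolar cells, had at most 2 counts in any library, with a count in 9 of 64, and was not tested.

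Genes around the receptors were read in 4 lists. Of 18 group I partners and genes of Gq signalling 16 passed among strains, of 14 genes of Gi and Go signalling 13, of 11 partners of group II and III receptors at the membrane 11, and of 14 genes of ligand supply and removal 13, shares that lie near the 89.2% of all genes. The median log2 ranges were 0.41, 0.33, 0.30 and 0.66 in that order, against 0.46 for the 6 receptors and 0.55 for all genes. The last list had 4 of 14 members with a range of 1 or more, near the 27.6% of all genes, and the other 3 lists had none. Folh1, the enzyme that hydrolyses N-acetylaspartylglutamate outside cells, had 30.9 ± 2.36 CPM in PWK/PhJ and 5.27 ± 0.721 CPM in C57BL/6J, a 5.86-fold difference (edgeR adjusted p = 5.09e-40). Naalad2, a relative of Folh1 with the same substrate, was highest in NZO/HlLtJ (1.70 ± 0.287 CPM) and lowest in CAST/EiJ (0.489 ± 0.122 CPM). The vesicular glutamate transporter gene Slc17a8 had 8.48 ± 1.44 CPM in PWK/PhJ and 1.91 ± 0.691 CPM in A/J. The fourth, Slc7a11, a cystine and glutamate exchanger gene, had 65.5 ± 7.17 CPM in NZO/HlLtJ and 22.5 ± 4.26 CPM in WSB/EiJ, and was named after its values were seen, to complete the count. Grm3, the receptor for the substrate of Folh1, was highest in C57BL/6J, the strain with the lowest Folh1. Grm3 was lowest in CAST/EiJ and Folh1 was highest in PWK/PhJ, and a relation between these genes was not tested.

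In the group I list, the scaffold genes Homer3 (74.6 ± 7.27 CPM in CAST/EiJ, 47.8 ± 2.72 CPM in 129S1/SvImJ, 1.56-fold) and Homer1 (167 ± 54.0 CPM in CAST/EiJ, 112 ± 6.26 CPM in NZO/HlLtJ, 1.47-fold) were highest in the strain where Grm5 was lowest. Homer2, named after its values were seen, was highest in 129S1/SvImJ (109 ± 22.7 CPM). A relation of the Homer genes to Grm5 was not tested. Among Gi and Go genes the potassium channel gene Kcnj6 varied most, with 58.0 ± 8.22 CPM in PWK/PhJ and 32.3 ± 7.63 CPM in A/J (1.80-fold), followed by the adenylyl cyclase genes Adcy1 (1.41-fold) and Adcy2 (1.38-fold). Among membrane partners the widest were the scaffold gene Grip1 (1.40-fold), the receptor kinase gene Grk3 (1.29-fold) and Grasp, which encodes tamalin (1.29-fold). As in the receptors, none of these reached a log2 range of 1. Of the ionotropic glutamate receptors, 8 of 9 AMPA and kainate subunit genes and 6 of 6 tested NMDA subunit genes passed among strains, near the 89.2% of all genes, with median log2 ranges of 0.35 and 0.51 and none of 1 or more.

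**Figure D4:**
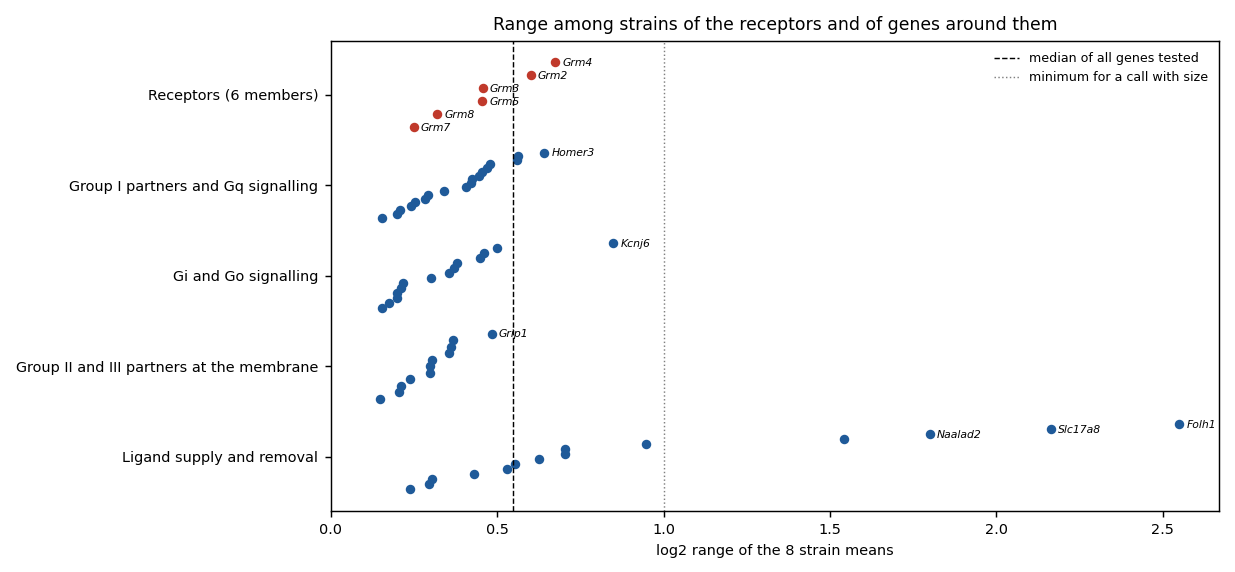
Log2 range of the 8 strain means (x axis) for the 6 receptors (red) and for the tested genes of 4 lists around them (blue), 1 point per gene, with the widest genes named. The dashed line marks the median of all genes tested (0.55) and the dotted line a range of 1, which 4 genes of ligand supply and removal pass and no receptor does.

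The genes most like each receptor were found by Pearson correlation of log2 CPM over the 64 libraries, which share their strain, sex and library, and are given without a test. For Grm5 they were Ube3a (r = 0.93), Mkln1 and Zfp148. After the mean of each group was removed they were Frmpd4, Tmod2 and Atrx (r = 0.95 each). Of these, Frmpd4 encodes a scaffold that links group I receptors and Homer. Each of the 4 libraries with a low length slope held the lowest Grm5 of its group. Their part in the correlations within groups was not tested. For Grm2 they were Prkcz (r = 0.76), Akt2 and Gls2, and within groups Nr4a2 (r = 0.72), Ddit4l and Plxdc1. For Grm3 they included Ugt8a (r = 0.70), an enzyme gene of myelin lipid synthesis, and Pkp4, and within groups they were 4930402H24Rik (r = 0.79), Clasp2 and Pacs2. For Grm4 they were Ahcy (r = 0.66), Arhgef19 and Gstm6, and within groups they included Meis2 (r = 0.71) and Limk1. For Grm8 they included, within groups, Prkar2b (r = 0.70) and Meis2, and were over all libraries Gabra3 (r = 0.59), Pramef8 and Sema3a. For Grm7 they were Mia3 (r = 0.80), Arhgap26 and Clec16a, and within groups Rab6b (r = 0.83), Ttc3 and Epb41l3. Between receptors the closest pairs within groups were Grm5 with Grm7 (r = 0.74) and Grm4 with Grm8 (r = 0.62). The 4 libraries with a low length slope held the lowest Grm7 of their groups as well as the lowest Grm5. Their Grm7 levels were 41.0 CPM in A/J male 2, 47.1 CPM in 129S1/SvImJ female 1, 44.6 CPM in WSB/EiJ female 1 and 44.0 CPM in C57BL/6J male 4. The part of these libraries in the correlation of Grm5 with Grm7 was not tested. Grm5 and Grm2 ran against each other over all libraries (r = -0.50) and hardly within groups (r = -0.10).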

How the data were processed

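Hippocampal RNA was sequenced from 64 libraries, 4 for each sex of 8 inbred mouse strains, after TRIzol Plus extraction and TruSeq library preparation, per the labels' protocols. The authors deposited raw read counts per Ensembl gene for all libraries, with build GRCm39 per the submitters' processing notes. The aligner, the counting tool and the use of strand are not given in the sources used here, and reads that match paralogs or opposite-strand genes could be split or shared by a step that is not known. No fold change or normalized value of the authors was used, and 0 columns of samples were left out.

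From the counts, CPM were computed with TMM scaling, and differences were tested with edgeR 4.0.16 (R 4.3.3, limma 3.58.1): filterByExpr (minimum count 10, minimum total 15), robust dispersions, a quasi-likelihood fit of 16 group means over all 64 libraries, and Benjamini-Hochberg adjustment over 17382 genes at 0.05. Log2 CPM used a prior count of 2. Calls were made with and without a log2 size of at least 1, and those in the text are without it unless stated, since no receptor reached it. Contrasts were an F test among strains, a strain minus the average of the remaining 7, the 28 strain pairs, female minus male over the strains and inside each, and the interaction.

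Library totals of 16607602 to 27759221 counts set the counting error. Names matched an annotation table for 32146 of 32227 gene IDs. Exon lengths came from a GRCm38 annotation and promoters from RefSeq (GRCm38.p6), and no coordinate was carried between builds. All members were named. Of each list the 3 genes with the widest range among those passing, and for each receptor the 3 protein-coding genes most correlated with it, were named by rule, except for a few items that are not reported here. Members, lists and tests were chosen with earlier results of these data known.

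Alternatives were DESeq2 1.42.0, RLE size factors, no count filter, a mean of at least 50 counts, 1 sex alone, an additive model, no CAST/EiJ females, marker scores as covariates, and each library left out. Striatum, oligodendrocyte, dentate granule and length slope settings were added after the data were seen. The scripts were tested on simulated counts.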

Additional observations from a re-analysis of the deposited data

Results flagged for a closer look

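Of the 96 sets of 4 libraries (6 receptors in 16 groups), 6 held a library whose distance to the nearest of the others took up nearly all of the set's range (above Dixon's 95% critical value), where chance gives about 1 in 20 sets, or 4.8. Of these, 3 were low values in libraries with a low transcript length slope: Grm5 in A/J male 2 (182 CPM, the other 3 at 299 to 314 CPM), Grm7 in 129S1/SvImJ female 1 (47.1 CPM, the others at 56.7 to 57.7 CPM) and Grm7 in WSB/EiJ female 1 (44.6 CPM, the others at 53.9 to 55.8 CPM). The other 3 were high values. WSB/EiJ male 4 was high in Grm5 (281 CPM, the others at 261 to 264 CPM) and in Grm3 (36.2 CPM, the others at 33.1 to 33.6 CPM), and PWK/PhJ male 4 was high in Grm8 (8.83 CPM, the others at 6.74 to 7.06 CPM).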

How the results depend on the processing

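No paired analysis was possible because the labels give the groups no shared replicate numbers. All 6 receptors passed the test among strains with each of the 64 libraries left out in turn. Among the other settings, Grm7 missed it in females alone (range 0.23, edgeR adjusted p = 0.0670) and with the dentate granule score (0.33, adjusted p = 0.0897), and Grm8 in females alone (0.46, adjusted p = 0.0766), in males alone (0.37, adjusted p = 0.243) and without the CAST/EiJ females (0.32, adjusted p = 0.0829). Without a size minimum the number of receptors passing among strains was 6 in place of 0, of strain comparisons 17 in place of 0 and of pairs 67 in place of 0. The 17 strain comparisons were 11 with the dentate granule score, 10 in females alone, 15 to 22 in the other alternatives and 15 to 21 with 1 library left out. The 67 pairs were 35 with the dentate granule score, 33 in females alone and 44 in males alone, and 51 to 82 in the other alternatives, the highest with the length slope as a covariate. Grm5 in PWK/PhJ turned to -0.0084 with the length slope as a covariate. The cause of these changes was not tested, beyond the smaller number of libraries in a single sex. Leaving out single libraries was not run for pairs of strains or for sex within a strain. All genes with a range of at least 1 that passed numbered 4792, against 7325 with no count filter and 1711 with a mean of at least 50 counts. Depth limits Grm8 most, and the CAST/EiJ females cannot be told apart from their block of numbers.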
